A study of Bos indicus x Bos taurus with 17 samples.

Results

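Transcript levels of 10 genes of the myostatin, activin and follistatin system were described in skeletal muscle and liver of bovine fetuses. The 10 genes are MSTN, GDF11, INHBA, INHBB, FST, FSTL1, FSTL3, ACVR2A, ACVR2B and ACVR1B. They were chosen by symbol, each symbol matched 1 row of the deposited tables, and the tables list 21048 genes in all. The fetuses were crosses of Bos indicus and Bos taurus, taken at about day 105 of gestation and labelled healthy in every case. The Control-AI group had been conceived by artificial insemination, and 2 of its fetuses, numbered 2 and 4, were used. The ART-Normal group had been produced in vitro by assisted reproduction and had a body weight under the limit for overgrowth that the study set from its controls, and 4 of its fetuses, numbered 1 to 4, were used. ART-Normal 4 is in the sample labels but is not among the fetuses that the study lists. Muscle and liver came from the same 6 fetuses, which gives 12 libraries of poly(A) RNA.

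Myostatin (MSTN), its close relative GDF11 and the activins are secreted members of the TGF-beta superfamily. They bind a type II receptor, ACVR2A or ACVR2B, which then recruits a type I receptor such as ACVR1B, and the complex phosphorylates SMAD2 and SMAD3. Myostatin is made mainly by skeletal muscle and restrains muscle growth, and cattle that lack it are heavily muscled. Activin A and activin B are dimers of the INHBA and INHBB subunits. Follistatin (FST) and the follistatin-like protein FSTL3 bind activins and myostatin and keep them from their receptors. FSTL1 shares a follistatin domain but is a secreted glycoprotein of mesenchymal cells with other partners.

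On the ARS-UCD1.2 build, MSTN lies at chr2:6278864-6285491 on the plus strand and GDF11 at chr5:57505355-57512998 on the minus strand. INHBA lies at chr4:79279914-79300035 and INHBB at chr2:72108054-72113653, both on the plus strand. FST is at chr20:25581178-25586895 and FSTL1 at chr1:65138522-65198381, both on the minus strand, and FSTL3 is at chr7:43279494-43285847 on the plus strand. The receptor genes are ACVR2A at chr2:48279645-48374634 on the minus strand, ACVR2B at chr22:11825975-11865183 on the plus strand and ACVR1B at chr5:27881756-27915461 on the minus strand. Each span is the whole gene, introns included, and that whole span is the length the tables list. None of the 10 spans overlaps another listed gene, so no listed gene on the opposite strand shares their reads. The closest neighbours are 793 bp from FSTL3 and 1233 bp from ACVR2A.

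Libraries held 12433300 to 23578362 counts in muscle and 18454088 to 43339598 in liver. Both libraries of Control-AI 2 stood apart from the other 5 fetuses on the first principal component, at 42.2 against -14.2 to -4.36 in muscle and at 43.1 against -19.4 to -2.04 in liver. In its liver the summed level of 8 hepatocyte genes was 334095 CPM, that is counts scaled to a fixed library total,, against 25353 to 41652 CPM in the ART-Normal livers and 50044 CPM in that of Control-AI 4. Its 8 erythroid genes summed to 23005 CPM, against 3709 to 4737 CPM in the other livers. The labelled tissues carried their own markers, with 9 muscle fibre genes at 21044 to 31704 CPM in muscle and at 7.97 to 45.5 CPM in liver, the highest being Control-AI 2. Of 5 myogenic progenitor genes, 4 are in the tables, and these summed to 218 to 303 CPM in muscle and to 0.0222 to 0.445 CPM in liver, where MYOD1 had no count in any library. Because 1 of only 2 controls stands apart, the contrast between the conception groups in each tissue is given with and without it for the genes named that passed the filter.

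MSTN, INHBA, FSTL1, ACVR2A and ACVR2B were higher in muscle than in liver in 6 of 6 fetuses, with no overlap between the 6 muscle and the 6 liver libraries, which 32.6% of all tested genes also showed. Liver lay wholly above muscle for none of the 10, and for 32% of all tested genes. GDF11, FST and ACVR1B had similar levels in both tissues, while INHBB and FSTL3 were low in both. Between the conception groups, no gene of the system passed the threshold in either tissue. Levels below are CPM with library sizes scaled by TMM over all 12 libraries. They compare 1 gene between libraries and not 1 gene with another, since no transcript length was used.

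**Figure D1:**
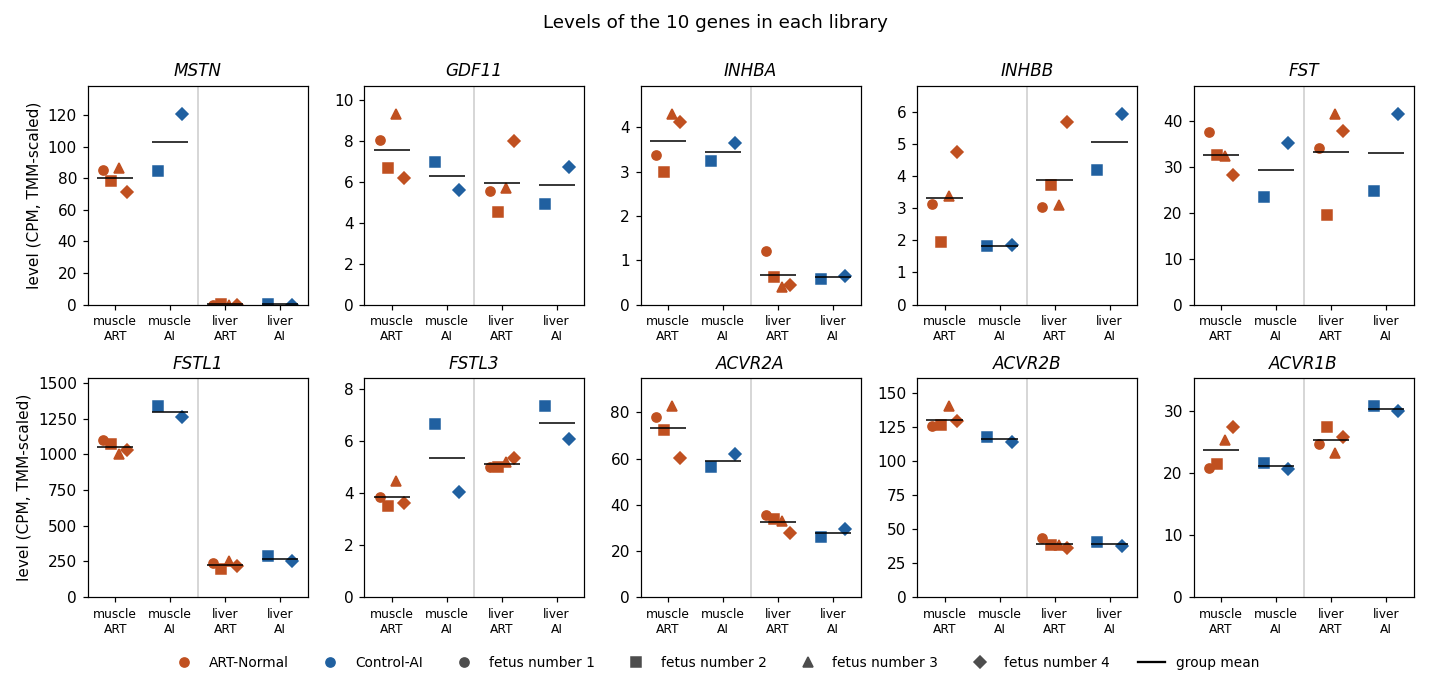
Level of each gene (CPM, TMM-scaled, linear axes from 0) in every library, by tissue and conception group (ART for ART-Normal, AI for Control-AI). Symbols mark the fetus number within its group and bars the group mean; the 5 genes with separate tissues are MSTN, INHBA, FSTL1, ACVR2A and ACVR2B, and MSTN lies on the zero line in liver.

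Among the ligands, MSTN had the sharpest division. In muscle it reached 85.6, 78.3, 86.4 and 71.4 CPM in ART-Normal 1 to 4. Control-AI 2 held 84.7 CPM of it and Control-AI 4 held 121 CPM. The latter was the highest library, whereas Control-AI 2 lay inside the ART-Normal range. The ART-Normal mean was 80.4 ± 7.01 CPM (SD, n = 4), a spread of 8.72% of the mean where counting error alone gives 2.42%. In liver MSTN had 8 counts in ART-Normal 2, the deepest library, 2 counts in Control-AI 2, and none in the other 4, in which 3 counts would be 0.102 to 0.138 CPM. Summed over libraries, 11112 counts in muscle stood against 10 in liver, a ratio of CPM of 1411 with an exact 95% interval of 767 to 2942 that covers counting error only. The muscle fibre genes were also higher in the Control-AI 2 liver than in the other livers, at 45.5 CPM, and their part in its 2 MSTN counts was not tested.

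GDF11, which patterns the axial skeleton during development, showed no such division. The ART-Normal muscles held 8.04, 6.66, 9.29 and 6.196 CPM, always listed by fetus from 1 to 4, and the control muscles 6.93 and 5.58 CPM, always listed as fetus 2 then 4. The ART-Normal livers held 5.53, 4.49, 5.70 and 7.96 CPM and the control livers 4.93 and 6.70 CPM. Muscle was the higher tissue in 4 of 6 fetuses, the 2 exceptions being both fetuses numbered 4, and the ranges of the tissues overlapped.

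INHBA, the subunit of activin A, was low in both tissues. ART-Normal muscles had 3.37, 3.00, 4.30 and 4.11 CPM, and the muscles of the controls 3.241 and 3.64 CPM. ART-Normal livers had 1.198, 0.623, 0.404 and 0.440 CPM, and those of the controls 0.580 and 0.645 CPM. Every muscle library lay above every liver library, and in each tissue the controls lay inside the ART-Normal range. Pooled, 454 muscle counts against 100 in liver gave a ratio of 5.76 with a counting interval of 4.63 to 7.23.

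INHBB, the subunit of activin B, leaned the other way between tissues without separating them. Its levels of 3.13, 1.94, 3.39 and 4.76 CPM in ART-Normal muscle all exceeded the control levels of 1.81 and 1.86 CPM. Of all genes tested in muscle, 8.15% did so, though INHBB itself was under the filter. The gap between 1.94 CPM in ART-Normal 2, from 35 counts, and 1.86 CPM in Control-AI 4, from 46 counts, was within counting error. Its levels in liver overlapped, with 3.04, 3.71, 3.11 and 5.69 CPM in ART-Normal against 4.202 and 5.93 CPM in controls. ART-Normal 4 was the highest ART-Normal fetus for INHBB in both tissues. The spread among ART-Normal fetuses was 35.0% of the mean in muscle and 31.8% in liver, against 12.4% and 9.79% from counting alone.

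Among the binding proteins, FST was nearly level between tissues and varied most between fetuses in liver. The muscle values were 37.6, 32.6, 32.4 and 28.4 CPM for ART-Normal against 23.4 and 35.2 CPM for controls. The liver values were 34.2, 19.6, 41.6 and 38.0 CPM for ART-Normal against 24.8 and 41.6 CPM for controls. ART-Normal 2 and Control-AI 2 were the 2 lowest livers, and Control-AI 2 was also the lowest muscle. The liver spread of 28.96% among ART-Normal fetuses compares with 3.29% from counting, and the fitted coefficient of biological variation was 0.251 where genes of similar abundance gave 0.174.

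FSTL1 was 4.70 times as high in muscle as in liver by mean level. ART-Normal muscles held 1101, 1070, 1003 and 1028 CPM, less than the 1337 and 1264 CPM found in control muscles. ART-Normal livers held 239, 198, 250 and 220 CPM, less than the 287 and 252 CPM found in control livers. The 4 groups therefore stood in the order muscle Control-AI, muscle ART-Normal, liver Control-AI and liver ART-Normal, with no overlap between neighbours, although the gap between the last 2 was only that between 252 and 250 CPM.

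FSTL3 was low, with 3.84, 3.498, 4.47 and 3.62 CPM for ART-Normal muscle and 6.63 and 4.04 CPM for control muscle. The ART-Normal livers, with 4.98, 4.98, 5.18 and 5.35 CPM, all lay under the control livers, with 7.32 and 6.06 CPM. Control-AI 2 was the highest library for FSTL3 in each tissue. Liver was the higher tissue in 6 of 6 fetuses, although the ranges of the tissues overlapped. The spread of 3.49% among ART-Normal livers was under the 8.27% that counting error gives, so the closeness of these 4 values is not informative.

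Of the type II receptors, ACVR2B was 3.21 times and ACVR2A 2.22 times as high in muscle as in liver by mean level. For ACVR2B, ART-Normal muscles held 126, 127, 140 and 129 CPM, more than the 118 and 114 CPM found in control muscles. Its livers overlapped, with 43.5, 38.2, 38.5 and 36.3 CPM for ART-Normal against 40.6 and 37.8 CPM for controls. It was among the steadiest of the 10 genes, its highest library being 1.23 times its lowest in muscle and 1.199 times in liver.

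ACVR2A had muscle levels of 78.0, 72.4, 82.6 and 60.4 CPM for ART-Normal against 56.2 and 62.0 CPM for controls. Its liver levels were 35.6, 33.9, 32.8 and 27.6 CPM for ART-Normal against 25.9 and 29.5 CPM for controls. In both tissues ART-Normal 4 was the lowest ART-Normal fetus and lay below Control-AI 4, so the groups overlapped. ACVR1B, the type I receptor also called ALK4, had muscle levels of 20.7, 21.5, 25.3 and 27.4 CPM for ART-Normal against 21.6 and 20.7 CPM for controls. Its 4 ART-Normal livers, with 24.7, 27.4, 23.3 and 25.7 CPM, all lay under the control livers, with 30.7 and 29.9 CPM.

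**Figure D2:**
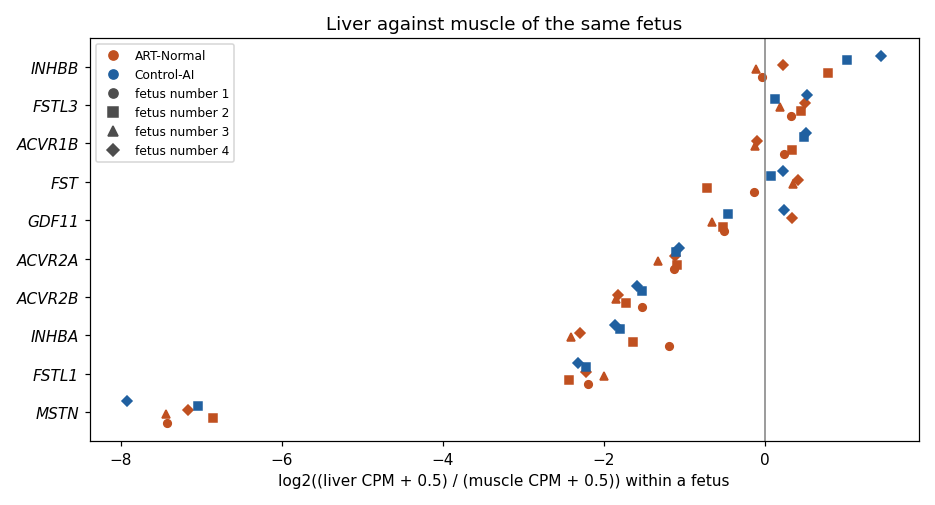
Log2 ratio of liver to muscle level within each of the 6 fetuses, with 0.5 CPM added to both, for the 10 genes ordered by their mean ratio. MSTN ranged from -7.92 to -6.86, where the added 0.5 CPM sets the liver value, and FSTL1, INHBA, ACVR2B and ACVR2A were below 0 in every fetus.

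The difference between tissues was tested with the quasi-likelihood test of edgeR over all 12 libraries, with the conception group as a covariate. Of the 10 genes, 8 passed the filter of 5 CPM in all libraries of a group, and INHBA and INHBB did not. MSTN and GDF11 passed it only through muscle and FSTL3 only through the Control-AI livers, so their directions are partly fixed by the filter. With Benjamini-Hochberg adjustment over 12923 genes, 4 of the 8 were higher in muscle, where 40.5% of all tested genes were called in that direction, and 1 was higher in liver, where 40.8% were. The median log2 fold change, liver over muscle, was -0.71 over the 8 genes, with MSTN, GDF11 and FSTL3 included, and 0.01 over all genes tested.

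FSTL1 was lower in liver by a log2 fold change of -2.23 ± 0.10 (SE, n = 12 libraries; edgeR adjusted p = 5.79e-11). ACVR2B gave -1.68 ± 0.07 (edgeR adjusted p = 4.45e-11) and ACVR2A -1.15 ± 0.10 (edgeR adjusted p = 5.23e-08). MSTN was called as well (edgeR adjusted p = 4.93e-12), and its size is best read from the pooled ratio given above, since 4 livers held no count. In bulk tissue, a different number of expressing cells and a different amount of RNA per cell cannot be told apart. Without the filter INHBA was also called, at -2.49 ± 0.31 (edgeR adjusted p = 3.00e-06), and INHBB was at 0.61 ± 0.30 (edgeR adjusted p = 0.0849). With a filter of 10 counts in every library instead, INHBB was called higher in liver.

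FSTL3 was called higher in liver, at 0.38 ± 0.16 (SE; edgeR adjusted p = 0.0388). It passed the filter only through the Control-AI livers, where it was highest, and the call was lost without the filter (edgeR adjusted p = 0.0768). ACVR1B, at 0.23 ± 0.11 (edgeR adjusted p = 0.0581), missed the threshold narrowly. GDF11 gave -0.27 with a 95% interval of -0.66 to 0.12 (edgeR adjusted p = 0.185), and FST gave 0.07 with an interval of -0.32 to 0.47 (edgeR adjusted p = 0.721). These intervals leave room for differences of FST in either direction.

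The study dealt with small RNAs in overgrown fetuses after assisted reproduction, and in the gene counts used here the contrast of conception is that of ART-Normal with Control-AI. In muscle, 7 of the 10 genes could be tested, INHBA, INHBB and FSTL3 being under the filter. None passed the adjusted threshold by edgeR's quasi-likelihood test, 0 of 7 had an unadjusted p under 0.05, and the likelihood ratio test and DESeq2 also called 0. Over all 11695 genes tested 1 was called, which is 0.00855%, with 1075 at an unadjusted p under 0.05, and the other tools called 120 and 106. The median log2 fold change was 0.17 over the 7 genes and 0.00 over all genes.

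MSTN had the largest negative value in muscle, at a log2 fold change of -0.35 with a 95% interval of -0.70 to 0.00 (edgeR adjusted p = 0.544). It depended on the control, being -0.59 when Control-AI 2 was left out and -0.05 when Control-AI 4 was. FSTL1 gave -0.30, interval -0.62 to 0.01 (edgeR adjusted p = 0.563), and was steadier, at -0.27 and -0.33 without Control-AI 2 and 4 in turn. FST gave 0.16, interval -0.27 to 0.59 (edgeR adjusted p = 0.849), and turned to -0.11 without Control-AI 2 and to 0.50 without Control-AI 4. It was 0.08 when ART-Normal 1 was left out.

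The receptors had positive values in muscle that were within the error. ACVR2A was at 0.32 with an interval of -0.02 to 0.66 (edgeR adjusted p = 0.571), ACVR2B at 0.17 with -0.09 to 0.44 (edgeR adjusted p = 0.713) and ACVR1B at 0.17 with -0.20 to 0.54 (edgeR adjusted p = 0.807). Leaving out Control-AI 2 gave 0.24, 0.18 and 0.19 for these receptors. ACVR1B was at 0.10 when ART-Normal 4 was left out. GDF11 was at 0.29 with an interval of -0.25 to 0.82 (edgeR adjusted p = 0.772), and at 0.43 once Control-AI 2 was left out, 0.15 once Control-AI 4 was, or 0.17 once ART-Normal 3 was. Under the filter, INHBB gave 0.86 ± 0.41 when all genes were tested (SE; edgeR adjusted p = 0.539). FSTL3, at -0.44 ± 0.30 (edgeR adjusted p = 0.742), and INHBA, at 0.11 ± 0.31 (edgeR adjusted p = 0.939), were also tested there.

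Of the 7 tested genes, ACVR2B had all 4 ART-Normal muscles above both controls, as 8.15% of all tested genes had, and FSTL1 had all 4 below both, as 7.89% had. Against Control-AI 4 alone, 3 of the 7 lay above it in every ART-Normal fetus and 2 below, where the shares over all tested genes were 20.5% and 20.3%. This comparison without Control-AI 2 was chosen after the data had been seen. MSTN was 1 of those below Control-AI 4, and GDF11 and ACVR1B were among those above. For ACVR1B the gap was within counting error, with 20.75 CPM from 524 counts in ART-Normal 1 against 20.70 CPM from 512 counts in Control-AI 4.

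**Figure D3:**
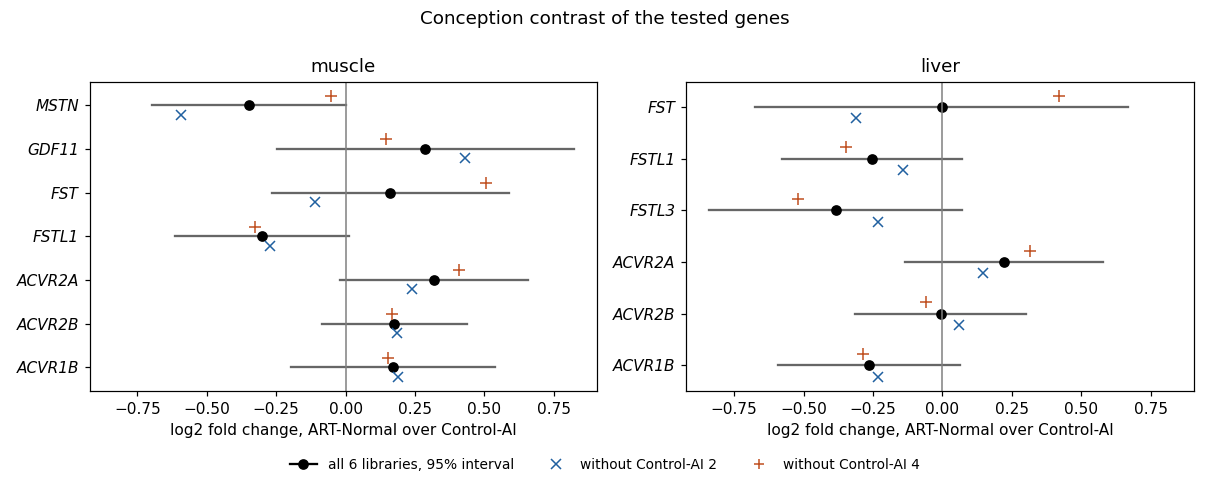
Conception contrast (log2 fold change, ART-Normal against Control-AI) for the genes that passed the filter in each tissue. Dots are the fit of all 6 libraries with 95% intervals, crosses the fit without Control-AI 2 and plus signs the fit without Control-AI 4; intervals of all 13 values include 0 and FST changes side with the control left out in both tissues.

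In liver, 6 of the 10 genes could be tested, and MSTN, GDF11, INHBA and INHBB were under the filter. None passed the adjusted threshold by edgeR, 0 of 6 had an unadjusted p under 0.05, and the likelihood ratio test and DESeq2 called 0 as well. Over all 11304 genes tested the call was 0%, with 948 at an unadjusted p under 0.05, and 89 and 56 called by the other tools. The median log2 fold change was 0.01 over all genes tested. It was -0.13 over the 6 genes and -0.01 over the 5 left without FSTL3, which the filter admitted through the controls alone.

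FSTL3 had the most negative value in liver, at -0.38 with a 95% interval of -0.84 to 0.07 (edgeR adjusted p = 0.590). It was in the test only because its level in the controls passed the filter, so its direction is partly fixed by that, and it moved to -0.23 without Control-AI 2. ACVR1B was at -0.26 with an interval of -0.59 to 0.06 (edgeR adjusted p = 0.592), and stayed at -0.23 and -0.29 without Control-AI 2 and 4. FSTL1 was at -0.25 with an interval of -0.58 to 0.07 (edgeR adjusted p = 0.593), and at -0.14 without Control-AI 2.

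ACVR2A was at 0.22, interval -0.13 to 0.58 (edgeR adjusted p = 0.644), and at 0.15 when Control-AI 2 was left out. ACVR2B gave -0.01, interval -0.31 to 0.30 (edgeR adjusted p = 0.990), which became 0.06 on leaving out Control-AI 2. FST was at 0.00, interval -0.67 to 0.67 (edgeR adjusted p = 0.998). FST again followed the control that was used, with -0.31 without Control-AI 2 and 0.42 without Control-AI 4. Its wide interval allows a difference of either sign of up to 0.67 on the log2 scale.

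FSTL1, FSTL3 and ACVR1B had all 4 ART-Normal livers below both controls, which 9.18% of all tested genes had, and none of the 6 had all 4 above, which 9.19% had. Against Control-AI 4 alone the same 3 genes were below in every ART-Normal fetus, where 18.8% of all tested genes were, and 17.7% were above. For FSTL3 this count is affected by the filter as said. With library size alone as the scaling, the median of all genes in liver moved to 0.21, and ACVR1B and FSTL1 were at -0.06 and -0.04, below that median by about as much as before.

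Whether the conception contrast differed between the tissues was tested as an interaction, and 0 of the 8 genes passed, with 0 at an unadjusted p under 0.05. Over 12923 genes the share called was 0%, and 717 had an unadjusted p under 0.05 in edgeR's test, the only one run for it. ACVR1B had the smallest p, with a difference of -0.43 between its liver and muscle log2 fold changes (interval -0.87 to 0.02, edgeR adjusted p = 0.921), and -0.40 when Control-AI 2 was left out. FSTL1 differed by 0.06, with an interval of -0.40 to 0.52 (edgeR adjusted p = 0.996), and by 0.15 when Control-AI 2 was left out. MSTN, with 10 liver counts in all, had an interval of -2.72 to 3.89.

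FSTL1 is made by fibroblasts, and the connective tissue genes stood in the same order between the groups in muscle. The summed level of 7 connective tissue genes (COL1A1, COL1A2, COL3A1, PDGFRA, LUM, POSTN and TCF21) was 21585 to 25991 CPM in ART-Normal muscle, against 27897 CPM for Control-AI 2 and 29087 CPM for Control-AI 4. Of the 6 that were tested, 4 had every ART-Normal library below both controls, as 7.89% of all tested genes had. None had them above, as 8.15% had, and 0 passed the adjusted threshold in edgeR. As markers of the same tissue, the 6 genes are not independent of each other. In liver the same genes summed to 1050 to 1261 CPM in ART-Normal, 1403 CPM for Control-AI 2 and 804 CPM for Control-AI 4, so the controls lay on either side. Within the muscle groups the orders differed. ART-Normal 1 had the lowest connective tissue sum of its group and the highest FSTL1 level, at 1101 CPM. ART-Normal 3 had the highest sum and the lowest FSTL1 level, at 1003 CPM. Control-AI 2 had a lower sum than Control-AI 4 but more FSTL1, at 1337 against 1264 CPM. The part of connective tissue content in the FSTL1 values was not tested.

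**Figure D4:**
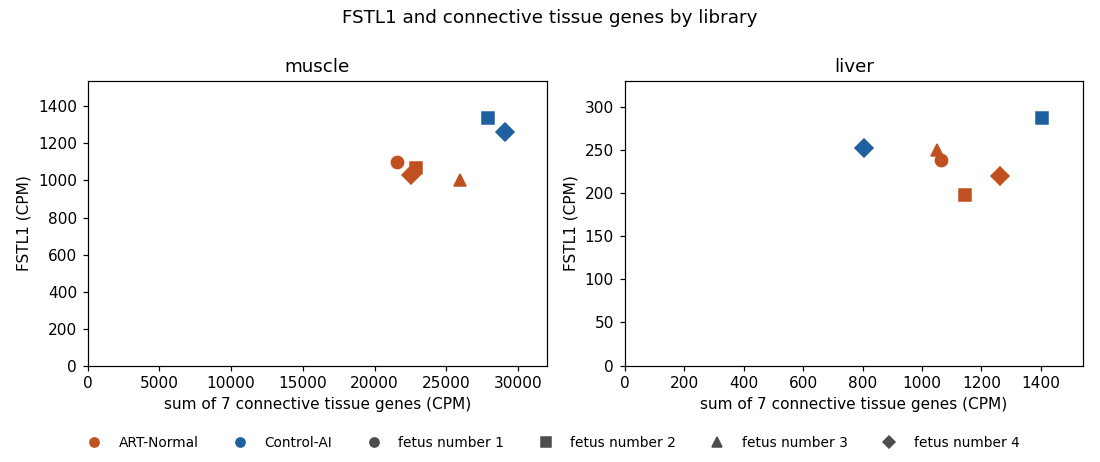
FSTL1 level against the summed level of 7 connective tissue genes (both in CPM, axes from 0) in each library of muscle and liver. In muscle both controls lie to the upper right of the 4 ART-Normal libraries; in liver the control with the lowest connective tissue sum, 804 CPM, still has 252 CPM of FSTL1.

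A list of 45 other genes of the pathway was examined in the same fits, made up of 7 ligands, 10 receptors and co-receptors, 16 binding, latency and processing proteins, and 12 intracellular genes. All 45 are in the tables. Between tissues 40 were tested, of which 27 were higher in muscle and 9 higher in liver by edgeR. Over all tested genes 40.5% were called higher in muscle and 40.8% higher in liver. The median log2 fold change, liver over muscle, was -1.13 over the list and 0.01 over all genes. Without both libraries of Control-AI 2 the counts were 28 and 9 of 41. Genes of the list that passed the filter through a single tissue have a direction partly fixed by it. Through muscle alone these were TGFB2, TGFB3, INHA, ACVRL1, BMPR1B, WFIKKN2, LTBP2 and TLL2. Through liver alone they were INHBE, BAMBI and WFIKKN1. The counts and the median include them. By group, 3 ligands, 7 receptors, 9 binding and processing proteins and 8 intracellular genes were higher in muscle, and 2, 1, 4 and 2 were higher in liver.

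The 4 genes of the list with the largest excess in muscle were TGFB2, WFIKKN2, LTBP4 and TGFB3. All but LTBP4 passed the filter through muscle alone, so their direction is partly fixed by it. TGFB2 was at 171 to 208 CPM in muscle and 1.69 to 2.75 CPM in liver, a log2 fold change of -6.46 ± 0.12 (SE; edgeR adjusted p = 7.54e-14). WFIKKN2, a secreted protein that binds myostatin and GDF11, was at 14.4 to 26.9 CPM in muscle and 0 to 0.902 CPM in liver. LTBP4, which holds latent TGF-beta in the matrix, was at 218 to 314 CPM in muscle and 4.86 to 8.69 CPM in liver. TGFB3 was at 44.1 to 52.7 CPM against 0.8295 to 2.46 CPM, and its span overlaps IFT43 on the opposite strand, so part of its reads is uncertain.

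The 4 with the largest excess in liver were INHBE, BAMBI, PCSK6 and SMAD6. INHBE and BAMBI passed the filter through liver alone, so their direction is partly fixed by it. INHBE, the subunit of activin E, was at 3.32 to 24.0 CPM in liver and had no more than 0.0396 CPM in any muscle library, which is under the level of 3 counts there. BAMBI, a decoy receptor without a kinase, was at 45.6 to 63.6 CPM in liver and 1.505 to 2.44 CPM in muscle, a log2 fold change of 4.75 ± 0.14 (SE; edgeR adjusted p = 9.63e-13). PCSK6, a proprotein convertase, was at 116 to 178 CPM against 6.86 to 31.9 CPM, and the inhibitory SMAD6 at 74.4 to 111 CPM against 10.03 to 20.1 CPM. INHBE varied over a range of 3.32 to 13.6 CPM in ART-Normal livers, and reached 24.0 CPM in 1 of the controls.

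**Figure D5:**
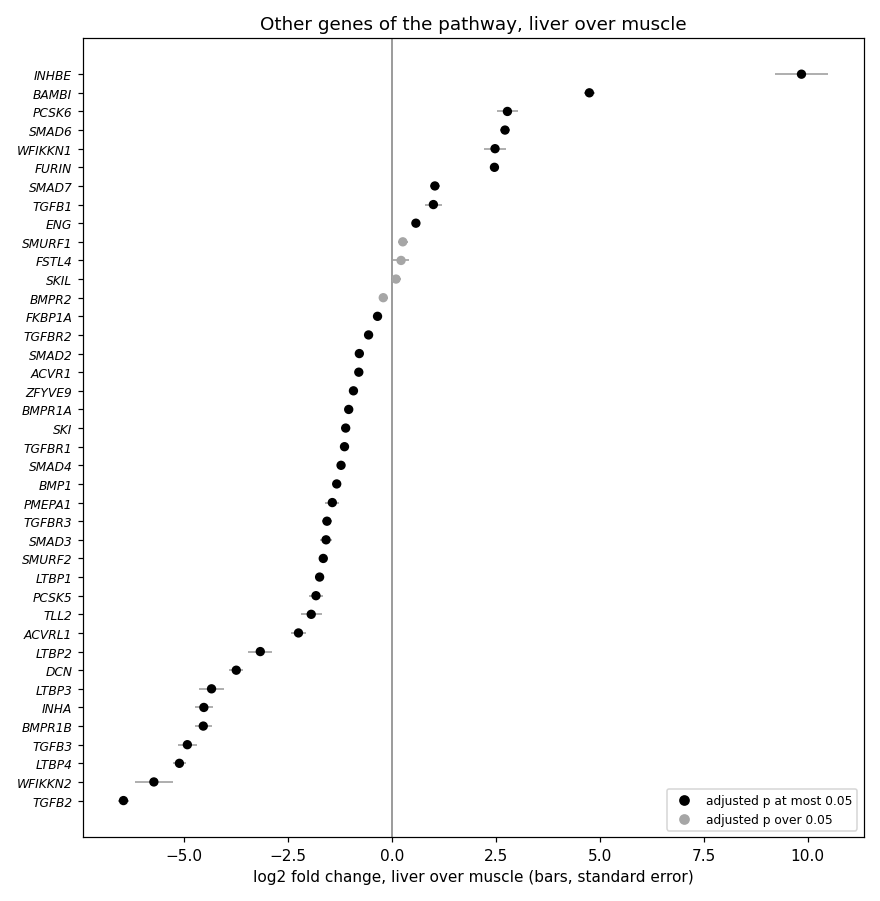
Log2 fold change, liver over muscle, with its standard error for the 40 tested genes of the pathway list, ordered by value; black dots passed the adjusted threshold of 0.05 and grey ones did not. TGFB2 (-6.46) and INHBE (9.85) are at the ends; the value of INHBE rests on a muscle level under 3 counts per library and is no measure of its fold.

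With all libraries, the list gave no calls between the conception groups. In muscle 37 of the 45 were tested and 0 passed in edgeR, 4 having an unadjusted p under 0.05, and the likelihood ratio test and DESeq2 called 0. The 3 with the smallest p were SMAD6 at 0.70 ± 0.19 (edgeR adjusted p = 0.317), TGFB1 at -0.91 ± 0.30 (edgeR adjusted p = 0.389) and FSTL4 at 0.91 ± 0.31 (edgeR adjusted p = 0.408), as log2 fold changes with SE. Without Control-AI 2 these were 0.61, -0.19 and 0.47. Without Control-AI 4, which leaves Control-AI 2 as the only control, they were 0.81, -1.40 and 1.64. BMPR1B was at 1.13 and PCSK6 at 1.83 in that fit, against 0.26 and -0.16 without Control-AI 2. SMAD6 was at 14.9 to 20.1 CPM in ART-Normal muscle and at 10.03 and 11.2 CPM in the controls. TGFB1 overlaps CCDC97 on the opposite strand, and its highest muscle library, at 26.1 CPM, was a control.

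In liver 32 of the 45 were tested and 0 passed in edgeR or by the other tools, with 3 at an unadjusted p under 0.05. The 2 with the smallest p were TGFBR2, the type II receptor of TGF-beta, at -0.41 ± 0.13 (edgeR adjusted p = 0.513), and TGFB1 at -0.65 ± 0.24 (edgeR adjusted p = 0.550). Without Control-AI 2 they were at -0.22 and -0.09, and without Control-AI 4 at -0.57 and -1.05. TGFBR2 was at 90.1 to 103 CPM in ART-Normal livers and at 112 and 140 CPM in the controls. In the interaction, 0 of 40 passed in edgeR and 1 had an unadjusted p under 0.05, TLL2, at 1.12 ± 0.46 (edgeR adjusted p = 0.854), or 1.14 without the libraries of Control-AI 2. PCSK6 had a lower contrast in liver than in muscle with all libraries, at -0.68 ± 0.50 (edgeR adjusted p = 0.956). BMPR1B and PCSK6 are named here after their values were seen.

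The genes whose levels followed 2 of the 10 most closely over 6 libraries were sought among all tested genes. For MSTN in muscle these were BTBD3 (Pearson r 0.989), RBBP8 (r 0.985) and TMEM41B (r 0.980), and 53 genes exceeded an r of 0.9. For FSTL1 in liver they were LGALS4 (r 0.989), FTSJ1 (r 0.989) and RNF157 (r 0.985), and 72 genes exceeded 0.9. With 6 libraries that share their depth and scaling, these values are a description, and many genes reach them.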

How the data were processed

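The authors deposited raw read counts per gene for skeletal muscle and liver, with gene positions on ARS-UCD1.2 and no normalization. The labels name HISAT2 2.1.0, featureCounts and edgeR 3.24.3 among the tools, and describe strand-specific libraries of oligo(dT)-selected RNA read as pairs of 150 bp; the strand setting of the counting is not given in the sources used here. Each of the 21048 listed lengths equals the whole gene span, introns included. Of the count columns, 7 per tissue matched no sample and were not used. Deposited tables of the authors' own comparisons, which hold fold changes and p-values, were not used. Total counts per library ran from 12433300 to 43339598.

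Counts were tested with the quasi-likelihood test of edgeR 4.0.16 in R 4.3.3, two-sided, with TMM scaling, over genes that reached 5 CPM in every library of some group, Benjamini-Hochberg adjustment over all genes tested and a threshold of 0.05. ART-Normal was compared with Control-AI in each tissue, and liver with muscle over all 12 libraries with the conception group as covariate; an interaction of both was added. The procedures were tested on simulated data. Levels are CPM with TMM-scaled library sizes. The 10 genes, the 45 other genes of the pathway and the marker lists were chosen with earlier results of these data known. Among the 45, up to 4 genes called in each direction with the largest log2 fold change are named, or the 3 with the smallest p where none was called, of which 1 in liver is not reported here; the genes most like MSTN in muscle and FSTL1 in liver were the 3 with the highest r.

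Both tissues came from the same fetus. Over genes, deviations from the group mean correlated between the tissues at r of 0.32, 0.07, 0.09 and 0.45 in ART-Normal 1 to 4. In the controls r was 0.54. With 2 controls the deviations mirror each other, so this is 1 value for both and cannot be compared with those of ART-Normal. Fits with the fetus as a replicate block were therefore alternatives, beside other scalings, filters, tests and subsets of libraries. DESeq2 1.42.0 was 1 of the tests. Intervals on pooled counts are exact, at 95%, and cover counting error only.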

Additional observations from a re-analysis of the deposited data

Results flagged for a closer look

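MSTN in the liver of ART-Normal 2 was at 0.178 CPM, from 8 counts, while the other 3 ART-Normal livers held none. It was the only 1 of 20 groups of 4 libraries in which the extreme library stood apart by more than Dixon's critical share of the range. For continuous values, chance alone passes that mark in about 1 group of 20. Here the other 3 libraries were at 0, so the share was 1.000 whatever the fourth value. The flag therefore follows from the zero counts, and the chance rate does not apply to it. That library was the deepest of all, with 43339598 counts, and in it 3 counts correspond to 0.0667 CPM. The 9 muscle fibre genes summed to 7.97 to 10.9 CPM over the 4 ART-Normal livers.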

How the results depend on the processing

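No gene of the system was called between the conception groups or in the interaction under any alternative, over 112 refitted values in muscle, 96 in liver and 80 in the interaction. MSTN, FSTL1, ACVR2A and ACVR2B stayed higher in muscle in every refit that tested them. FSTL3 lost its call in liver over muscle with library size alone (0.23, adjusted p = 0.248), with upper quartile scaling (0.33, 0.0700), without the filter (0.37, 0.0768) and in 5 of 6 fits without 1 fetus, where adjusted p ran from 0.0423 to 0.104; with ART-Normal fetuses only it was not tested. ACVR1B became a call with a filter of 10 counts in every library (0.25, adjusted p = 0.0433) and in 2 of 6 fits without 1 fetus (0.16 to 0.30). The filter of 10 counts tested 8 of the 10 genes, without MSTN and INHBA, and called 3 higher in liver and 3 lower. INHBB was called higher there, beside FSTL3 and ACVR1B.

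The number of genes called in muscle, 1 at first, was 120 by likelihood ratio test, 106 by DESeq2, 90 with the number in the titles as a replicate block, 0 with ART-Normal 1 to 3 only, 0 with both tissues in one fit, and 0 to 1327 with 1 library left out. In liver it was 0 at first, then 8 with library size alone, 89 by likelihood ratio test, 56 by DESeq2, 6 with the replicate block, 2 with ART-Normal 1 to 3 only, 4 with both tissues in one fit, and 0 to 830 with 1 library left out. In the interaction it was 0, and 0 to 232 with 1 fetus left out. The highest of each range came without Control-AI 4, which leaves Control-AI 2 as the lone control, assumed to vary like the other group; without Control-AI 2 instead, 5 genes were called in muscle and 1 in liver. The numbers 2 and 4 shared by the groups did not pair them (r of -0.01 and -0.18 in muscle, 0.02 and -0.12 in liver). With the fetus as a replicate block the tissues differed in 10941 genes instead of 10503, the interaction stayed at 0, and no call of the 10 genes changed.

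Several values turned sign. The liver log2 fold change of FST became 0.15 with library size alone, 0.0013 by likelihood ratio test, 0.014 without the filter, 0.00058 with a filter of 10 counts, 0.00012 with both tissues in one fit, and -0.31 to 0.42 with 1 library left out. That of ACVR2B became 0.20 with library size alone, 0.018 without the filter, 0.026 with ART-Normal 1 to 3 only, and -0.061 to 0.060 with 1 left out. FST in muscle ran from -0.11 to 0.50 with 1 left out. FST in liver over muscle became -0.061 with library size alone and -0.012 to 0.20 with 1 fetus left out. In the interaction, library size alone gave 0.11 for ACVR2A and 0.043 for ACVR2B, and leaving out 1 fetus gave -3.06 to 4.42 for MSTN, -0.58 to 0.14 for GDF11, -0.29 to 0.032 for FST, -0.014 to 0.15 for FSTL1 and -0.14 to 0.26 for FSTL3. The causes were not tested. Levels per length of transcript could not be had and were not run. With 2 controls, differences of the sizes seen here were within the error.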
